A study of Mus musculus with 5 samples.

Results

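The genes of cytochrome P450 families 1 to 3 were taken as all deposited records whose symbol is Cyp, a family digit from 1 to 3, a subfamily letter and a number, with no suffix for a pseudogene. This gave 59 of 46095 gene records, in 16 subfamilies, of which 57 are typed as protein-coding and 2, Cyp2d13 and Cyp2j7, as pseudogenes. Their RNA was measured by sequencing in 5 livers or liver sections of C57BL/6 mice, as 1 library per condition. Control mice, labelled wild type and called Srsf2f/f in the study, carry loxP-flanked Srsf2, which encodes a splicing factor. The mutants, called HKO, are the same mice with Cre under the albumin promoter, so that the gene is deleted in hepatocytes and kept in the other cells of the liver. The libraries come from a 2M (2 months of age) Srsf2f/f liver, a 2M HKO liver, a 12M Srsf2f/f liver, a section without tumor of a 12M mutant liver (non-tumor), and a tumor. The codes of the non-tumor and tumor sections hold the same animal number, the tumor has no genotype label of its own, and the codes of the 12M samples start with M13 although titles and age labels give 12 months. The study's protein blots found Srsf2 again in HKO livers of both ages sequenced, and Srsf2 RNA lay at 14.6 to 22.7 FPKM in all libraries, highest in the 2M HKO liver. With no replicates, no p-value can be given, and the intervals below cover counting error only.

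Cytochrome P450 enzymes are heme proteins of the endoplasmic reticulum that insert an oxygen atom into their substrates, with electrons passed on by cytochrome P450 oxidoreductase. Those of the first families act on drugs, toxins, steroids, bile acids and fatty acids, and hepatocytes make most of them, many in the pericentral zone around the central vein. The nuclear receptors CAR and PXR and the aryl hydrocarbon receptor induce the Cyp2b, Cyp3a and Cyp1a genes, and in mice pulses of growth hormone set the sex bias of several members.

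Levels are given as FPKM, sequenced fragments scaled to gene length and to the library's total, which allows genes to be compared per length. Of the 59 members, 31 exceeded 5 FPKM in at least 1 library and 21 exceeded 100 FPKM. Of the other 28, 9 were at 0 in every library, 7 stayed under 1 FPKM and 12 reached between 1 and 5, the highest being Cyp2a22 at 4.70 FPKM. The member just over the minimum was Cyp2c55, with 5.65 FPKM at its highest. The summed level of all members was 14097 FPKM at 2M and 15826 at 12M among the Srsf2f/f controls, against 6025 for the HKO liver, 10014 for the non-tumor section and 4523 for the tumor. The sum was thus 2.34-fold lower in the 2M HKO liver than in its control, 1.58-fold lower in the non-tumor section than in the 12M Srsf2f/f liver, and 2.21-fold lower in the tumor than in the non-tumor section. Without Cyp2e1, the most abundant member in 3 of the 5 libraries, these sums still differed 1.76-fold, 1.26-fold and 1.64-fold in the same direction.

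**Figure D1:**
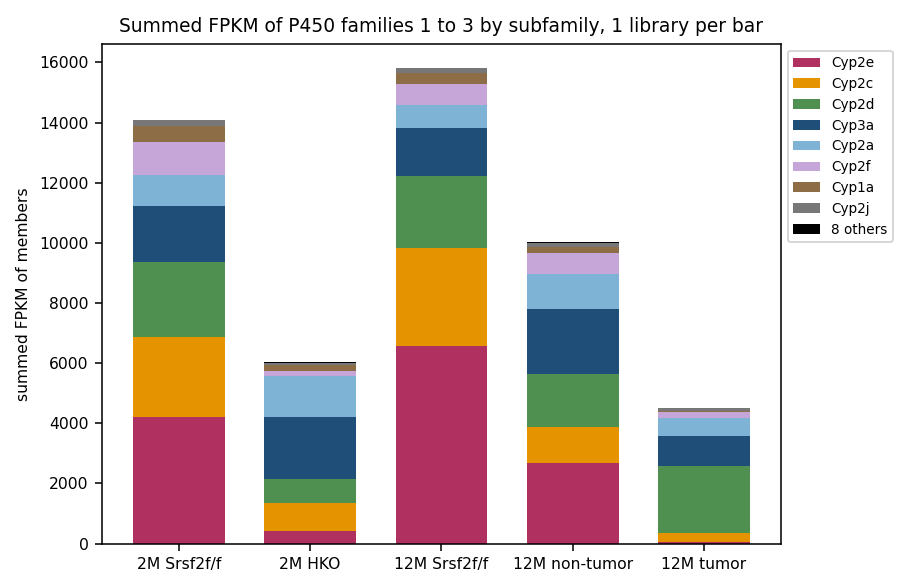
Summed FPKM (vertical axis, from 0) of the members in each of the 5 libraries, 1 bar per library, with colours for the 8 largest subfamilies and black for the other 8. The control bars reach 14097 and 15826 FPKM, with Cyp2e as their largest segment, whereas the tumor bar of 4523 FPKM consists mostly of Cyp2d and Cyp3a.

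The makeup of this sum differed between libraries. Cyp2e1 held 29.97% and 41.6% of it in the 2M and 12M controls, 7.04% in the HKO liver, 26.9% in non-tumor tissue and 1.51% in the tumor. The 9 Cyp2d genes held 17.7% and 14.9% in these controls, 13.2% in the HKO liver and 17.8% in the non-tumor section, but 49.2% in the tumor. The Cyp3a share was 34.3% in the HKO liver, where Cyp3a11 was the most abundant member, against 13.1% in its control. Cyp2d9 was the most abundant member in the tumor. The 15 Cyp2c genes held 20.6% of the sum of the 12M control, 11.7% of that of the non-tumor section and 6.20% of that of the tumor.

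**Figure D2:**
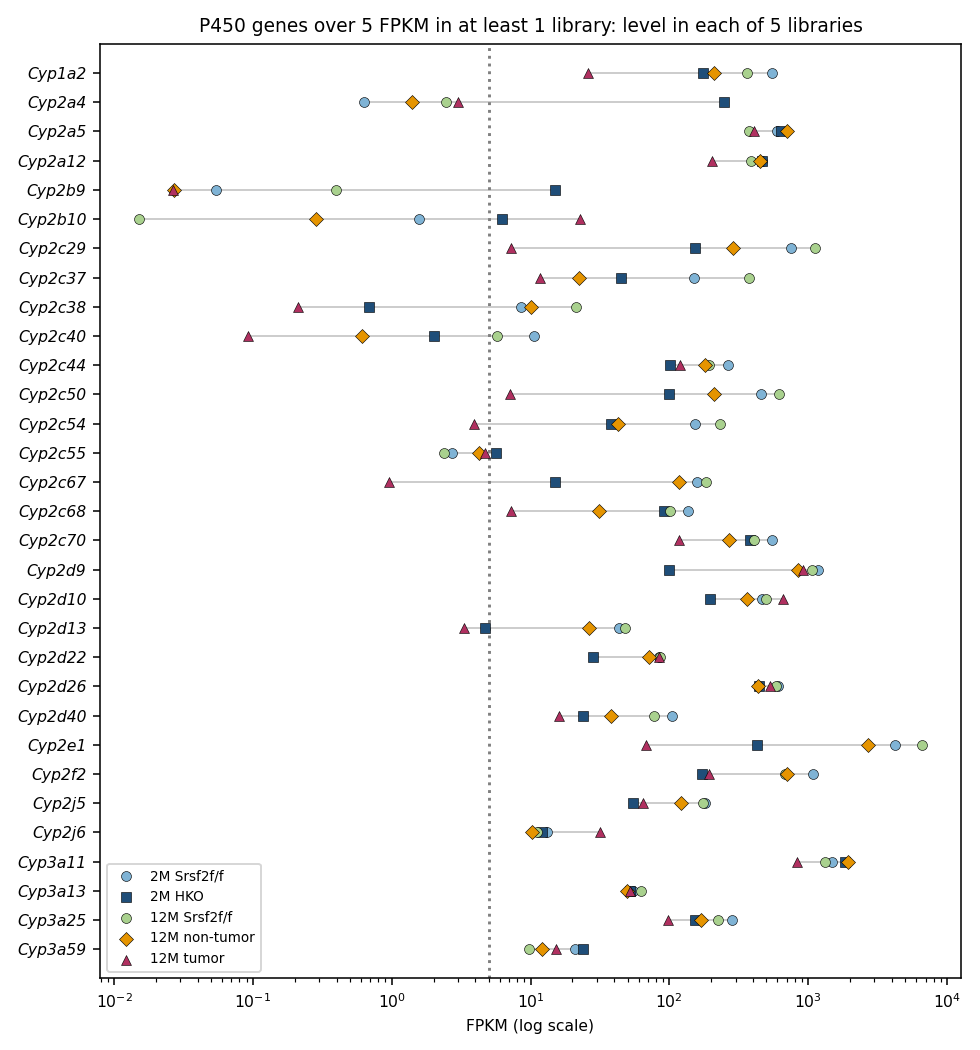
FPKM on a log axis of the 31 members that exceeded 5 FPKM in at least 1 library, 1 symbol per library and a grey line from the lowest to the highest, with the 5 FPKM minimum dotted. For Cyp2e1 and most Cyp2c genes the tumor triangle is leftmost, from 0.0923 FPKM (Cyp2c40) upward, while Cyp2a4 and Cyp2b9 reach 248 and 15.1 FPKM in the 2M HKO liver only.

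Libraries were compared by the fold rule that the study's methods give, without its p-value. Calls of higher or lower required a log2 ratio over 1 in size, taken on FPKM with 0.1 added, and more than 5 FPKM in at least 1 of both libraries. For the 2M HKO liver against its control, 17 of the 31 members tested were lower and 4 were higher, where 6.98% and 19.2% of all genes tested were called in these directions. The 4 higher ones, Cyp2a4, Cyp2b9, Cyp2b10 and Cyp2c55, passed the minimum only through the HKO library, and so were bound to be higher, while the other 27 exceeded it in the control, 3 of the 17 lower ones in the control alone. The median log2 ratio of the members was -1.40, against 0.23 over all genes tested. In the non-tumor section against the 12M Srsf2f/f liver, 9 of 27 members were lower (1.73% of all genes) and none was higher (6.14%), with medians of -0.51 and 0.14. In the tumor against the non-tumor section, 14 of 27 were lower (8.43%) and 2, Cyp2b10 and Cyp2j6, were higher (17.7%), with medians of -1.14 and 0.23. In the tumor against the 12M Srsf2f/f liver, 16 of 28 were lower (9.49%) and the same 2 were higher (27.4%). Cyp2b10 passed the minimum only through the tumor in both comparisons and was bound to be higher, which leaves Cyp2j6, and 1, 4 and 5 of the members called lower in these comparisons at 12M exceeded it only in the comparator. The comparisons at 12M share libraries with each other, so each is given for its own values.

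The control livers of both ages differed much less. Of 27 members, Cyp2c37 and Cyp2c38 were higher at 12M than at 2M, Cyp3a59 was lower, and log2 ratios ran from -1.08 to 1.33, where 2.39% and 2.09% of all genes were called higher and lower. These libraries differ in animal and in age, which cannot be told apart. For 9099 genes over 1 FPKM in all 5 libraries, the median ratio of each library to the gene means over the 5 libraries was taken on the log2 scale. This median was 0.25 higher in the 2M HKO liver than in its control and 0.19 higher in the non-tumor section than in its control. The tumor lay 0.16 above the non-tumor section and 0.35 above the control. Rescaled by this median, the members called lower and higher numbered 18 and 3 at 2M (10.5% and 14.6% of all genes), 10 and 0 in the non-tumor section (2.66% and 4.61%), 16 and 2 for tumor against non-tumor (10.9% and 14%), and 19 and 2 for tumor against control (15.3% and 18.5%). Between the control livers 1 and 2 remained the counts of lower and higher members (1.91% and 2.61%).

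**Figure D3:**
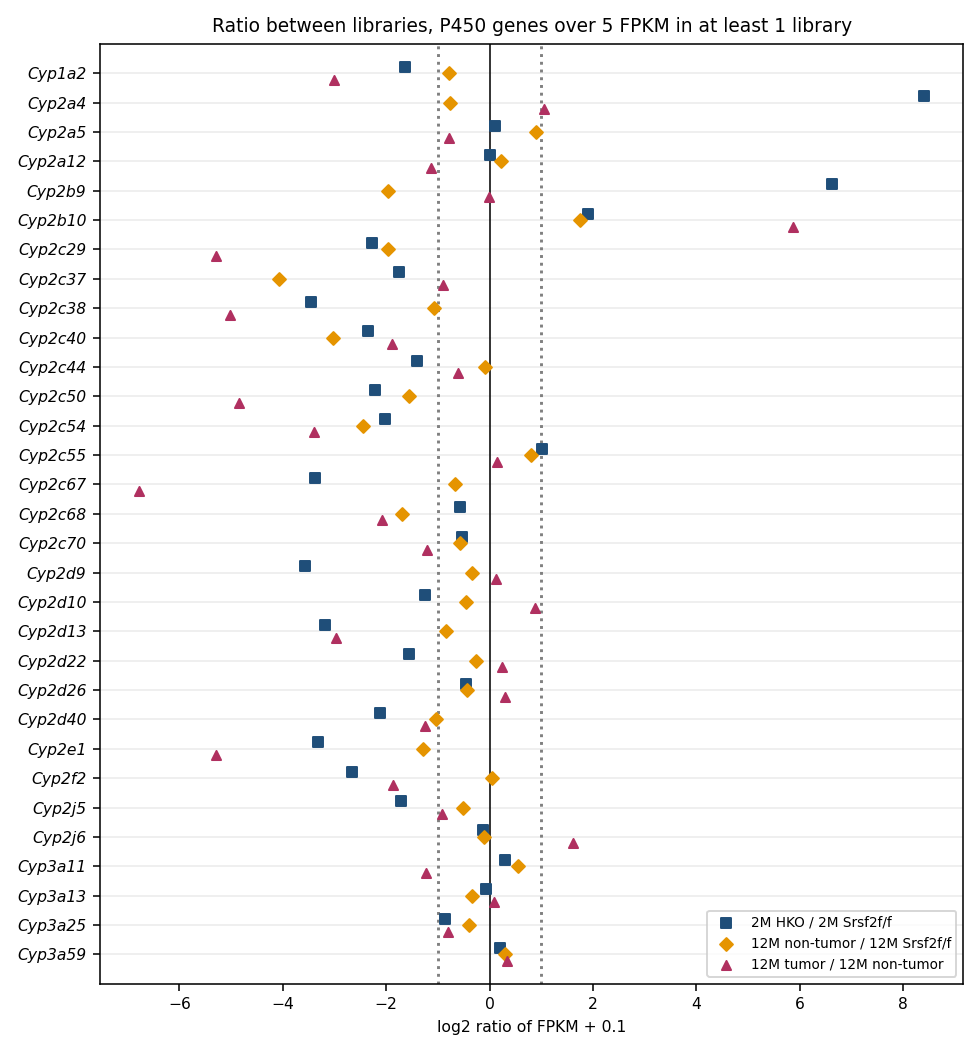
Log2 ratio (horizontal axis) of the 31 members in the 3 comparisons of the study, squares for the 2M HKO liver, diamonds for the non-tumor section and triangles for the tumor against the non-tumor section, with dotted lines at -1 and 1. Points span -6.78 (Cyp2c67, tumor) to 8.40 (Cyp2a4, 2M HKO), and points past a dotted line with under 5 FPKM in both libraries were not called.

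The comparisons at 2M and of tumor against non-tumor tissue share no library. Of the 17 members lower at 2M and the 14 lower in the tumor, 10 (58.8% and 71.4% of each set) were lower in both: Cyp1a2, Cyp2c29, Cyp2c38, Cyp2c50, Cyp2c54, Cyp2c67, Cyp2d13, Cyp2d40, Cyp2e1 and Cyp2f2. Over all genes, 214 were lower in both, which is 42.5% of the 504 lower at 2M and 33.3% of the 642 lower in the tumor. Lower at 2M but not so called in the tumor were 7, namely Cyp2c37, Cyp2c40, Cyp2c44, Cyp2d9, Cyp2d10, Cyp2d22 and Cyp2j5. Their log2 ratios of tumor against non-tumor were -0.91, -1.89, -0.60, 0.13, 0.87, 0.24 and -0.91 in this order. Cyp2c40 was under 5 FPKM in both libraries, so it could not be called. Lower in the tumor but not at 2M were 4, namely Cyp2a12, Cyp2c68, Cyp2c70 and Cyp3a11. Called in none of the 3 comparisons of the study were 5 of the 31 members, Cyp2a5, Cyp2d26, Cyp3a13, Cyp3a25 and Cyp3a59, or 16.1%, against 61.1% of the 8176 genes over 5 FPKM in any library.

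Cyp2e1, which oxidizes ethanol and turns acetaminophen into its toxic product, showed the largest loss in FPKM. Its level was 4225 FPKM in the control and 424 in the HKO liver at 2M, and 6579, 2689 and 68.2 in the control, non-tumor and tumor libraries at 12M. Among all genes of a library it ranked 13th and 9th in the controls at 2M and 12M, 132nd in the HKO liver, 22nd in non-tumor tissue and 964th in the tumor. It was 9.96-fold lower (95% counting interval, 9.83 to 10.1) in the HKO liver than in its control, 2.45-fold lower (95% counting interval, 2.43 to 2.46) in the non-tumor section, and 39.4-fold lower (95% counting interval, 38.2 to 40.6) in the tumor than in the non-tumor section. Both controls lay above all 3 mutant libraries. Cyp1a2, which metabolizes caffeine and arylamines, was at 544 FPKM in the control and 176 in the HKO liver at 2M, and 363, 209 and 26.03 in the control, non-tumor and tumor libraries at 12M. It was 3.10-fold lower (95% counting interval, 3.03 to 3.16) in the HKO liver and 8.04-fold lower (95% counting interval, 7.65 to 8.45) in the tumor than in their comparators, both called, while the log2 ratio of -0.79 in the non-tumor section was under the threshold. The neighbouring Cyp1a1, the classical gene induced through the aryl hydrocarbon receptor, stayed at 0.485 to 1.86 FPKM.

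The Cyp2c genes, many of which oxidize arachidonic acid or other fatty acids, formed the largest group of members called. Of the 11 tested at 2M, 8 were lower and 1 was higher. In the non-tumor section 7 of 10 were lower, and in the tumor against the non-tumor section 7 of 9. Except for Cyp2c44, which lies 3817735 bases away, the Cyp2c members form a block of 14 genes on chromosome 19, from 39006938 to 40187286 of GRCm38 in the deposited coordinates. Cyp2c29, the most abundant of them in the controls, was at 746 FPKM in the control and 154 in the HKO liver at 2M, and 1125, 287 and 7.26 in the control, non-tumor and tumor libraries at 12M. Its log2 ratios were -2.27, -1.97 and -5.29 in the 2M HKO, non-tumor and tumor against non-tumor comparisons. Cyp2c50 was at 460.3 FPKM in the control and 98.5 in the HKO liver at 2M, and 617, 209 and 7.15 in the control, non-tumor and tumor libraries at 12M. Cyp2c54 was at 153 FPKM in the control and 37.7 in the HKO liver at 2M, and 233, 42.4 and 3.92 in the control, non-tumor and tumor libraries at 12M. Both were thus lower in each mutant library than in either control, and lowest in the tumor.

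Cyp2c37 and Cyp2c67 differed in where their lower levels appeared. Cyp2c37 was at 151 FPKM in the control and 44.96 in the HKO liver at 2M, and 375, 22.2 and 11.8 in the control, non-tumor and tumor libraries at 12M. Most of its difference was present in the non-tumor section, which was 16.9-fold lower (95% counting interval, 16.02 to 17.8) than its control, while the tumor differed from that section by a log2 ratio of -0.91, under the threshold. Cyp2c67 was at 158 FPKM in the control and 15.1 in the HKO liver at 2M, and 185, 116 and 0.962 in the control, non-tumor and tumor libraries at 12M. Here the non-tumor section was 1.59-fold lower (95% counting interval, 1.54 to 1.64) than its control, under the threshold, and the tumor was 121-fold lower (95% counting interval, 93.9 to 159) than the non-tumor section. Cyp2c68 behaved in neither of these ways: it was at 137 FPKM in the control and 91.3 in the HKO liver at 2M, and 100.4, 31.01 and 7.25 in the control, non-tumor and tumor libraries at 12M.

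Cyp2c70 makes the muricholic acids, bile acids that are abundant in mice. It was at 553 FPKM in the control and 382 in the HKO liver at 2M, and 404, 271 and 118 in the control, non-tumor and tumor libraries at 12M. It was called lower only in the comparisons that include the tumor, with -1.20 against the non-tumor section. Cyp2c44, which forms epoxides of arachidonic acid, was at 264 FPKM in the control and 100.4 in the HKO liver at 2M, and 192, 180.4 and 119 in the control, non-tumor and tumor libraries at 12M, and was called lower at 2M only. Cyp2c38 was at 8.46 FPKM in the control and 0.685 in the HKO liver at 2M, and 21.4, 10.1 and 0.212 in the control, non-tumor and tumor libraries at 12M. Cyp2c40 was at 10.7 FPKM in the control and 2.00 in the HKO liver at 2M, and 5.74, 0.613 and 0.0923 in the control, non-tumor and tumor libraries at 12M. Both were lowest in the tumor. Cyp2c55, known to be induced through CAR and PXR, was the 1 Cyp2c gene called higher, at 2.73 FPKM in the control and 5.65 in the HKO liver at 2M, and 2.39, 4.26 and 4.69 in the control, non-tumor and tumor libraries at 12M. Its log2 ratio of 1.02 at 2M stood just past the threshold, and with a pseudocount of 1 or after rescaling it was 0.83 or 0.78, under it.

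**Figure D4:**
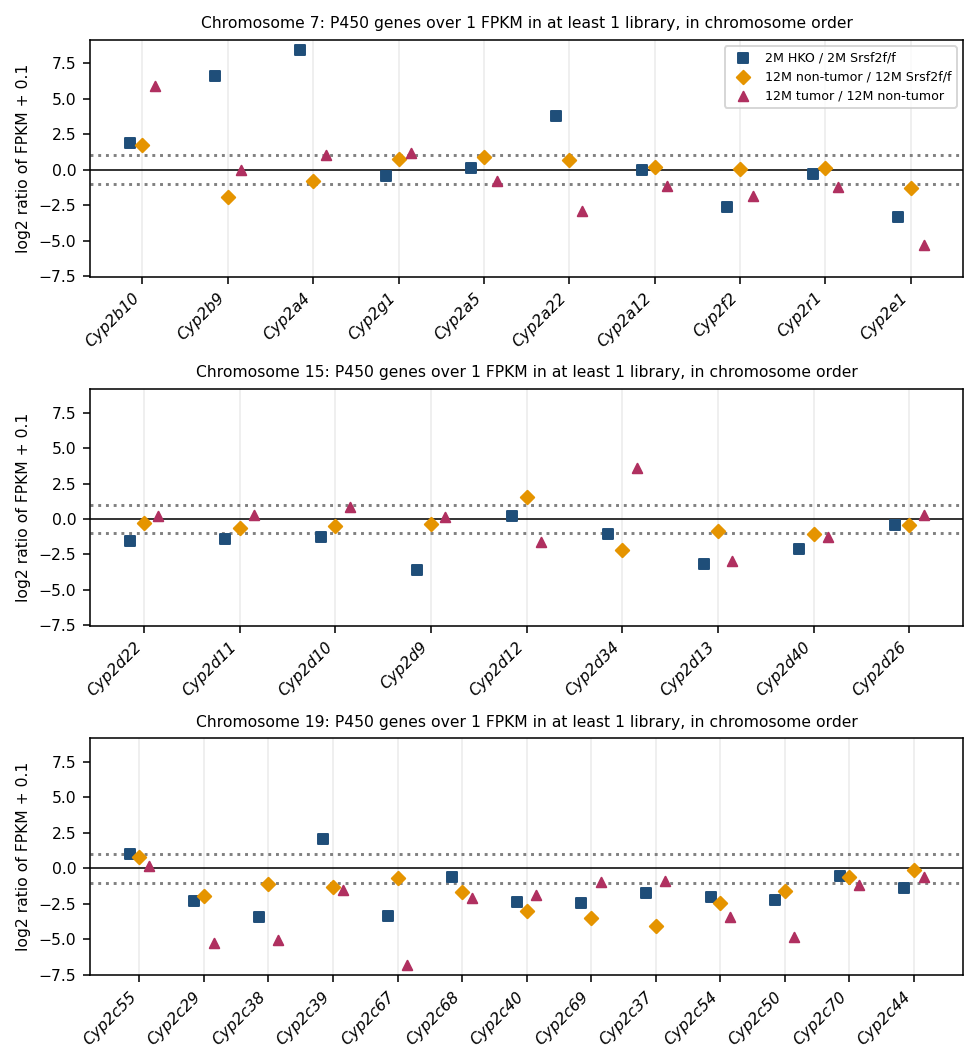
Log2 ratio (vertical axis) of the members over 1 FPKM in at least 1 library, in their order along chromosomes 7, 15 and 19 (evenly spaced, not to scale in bases), with squares, diamonds and triangles as in the legend and dotted lines at -1 and 1. On chromosome 19 the genes from Cyp2c29 to Cyp2c50 lie below 0 except Cyp2c39 at 2M (2.07), and on chromosome 15 Cyp2d9 lies at -3.58 at 2M and 0.13 in the tumor.

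The Cyp2c genes also share sequence with each other. Among transcripts of GENCODE M21, 57 members had one, and the share of its 50-base windows found in a transcript of another gene was 0% for Cyp2c70, 2.08% for Cyp2c29, 30.1% for Cyp2c37, 52.8% for Cyp2c67 and 72.1% for Cyp2c40. Of the 29 such members over 5 FPKM, 8 shared under 5% of windows, 19 from 5% to 50% and 2, Cyp2c40 and Cyp2c67, more. How the counting treated fragments that fit more than 1 gene is not given in the sources used here, so levels of genes with a high share are uncertain. The Cyp2c sum, which splits between paralogs change less, had log2 ratios of -1.50, -1.47 and -2.07.

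The bases upstream of the members' starts were searched in RefSeq promoters of GRCm38.p6 (250 bases before the start, both strands), which held 50 of the 59 members among 32851 promoters. CAAAGTCCA, a core that the hepatocyte factor HNF4A binds, was present in 8 members (16%), Cyp2c40, Cyp2c65, Cyp2c67, Cyp2c68, Cyp2c69, Cyp2c70, Cyp3a11 and Cyp3a16, and in 0.384% of all promoters. The upstream bases of Cyp2c67 and Cyp2c70, from 190 to 41 before the start of the promoter table, are shown because both hold this motif (capitals) while their levels in the tumor differ. Cyp2c67 covers chr19:39649083-39649232 and Cyp2c70 chr19:40187327-40187476, both on the minus strand.
Cyp2c67: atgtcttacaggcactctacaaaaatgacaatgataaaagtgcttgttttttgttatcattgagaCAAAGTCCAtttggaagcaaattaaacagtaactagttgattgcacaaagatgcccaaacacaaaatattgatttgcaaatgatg
Cyp2c70: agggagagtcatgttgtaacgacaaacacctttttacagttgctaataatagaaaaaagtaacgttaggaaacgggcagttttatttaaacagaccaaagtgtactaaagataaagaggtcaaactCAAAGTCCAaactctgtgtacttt
The motif starts 125 bases before that start in Cyp2c67 and 64 in Cyp2c70. The deposited record of Cyp2c67 starts 37 bases further upstream than the promoter table has it, so that the motif lies 88 bases before the deposited start, while for Cyp2c70 both starts are the same. The 5 genes with this motif and over 5 FPKM had log2 ratios at 2M of -3.38 for Cyp2c67, -2.36 for Cyp2c40, -0.58 for Cyp2c68, -0.54 for Cyp2c70 and 0.30 for Cyp3a11. At 2M, genes with the same letters thus spanned the range from called lower to slightly above 0. In the tumor against the non-tumor section all 5 lay below -1. Of all 27 members tested in that comparison, with or without the motif, 14 were lower. The ratios there were -6.78 for Cyp2c67, -2.08 for Cyp2c68, -1.23 for Cyp3a11 and -1.20 for Cyp2c70. Cyp2c40, at -1.89, was under 5 FPKM in both libraries and so not called. Hnf4a itself was at 226 FPKM in the control and 170.2 in the HKO liver at 2M, and 191, 182 and 149 in the control, non-tumor and tumor libraries at 12M. Of the other motifs, the core promoter letters TATAAA were in 23 of 50 members (46%) and 12.4% of all promoters, and AGGTCA, which nuclear receptors bind, in 15 (30%) and 14%. ATCAAT (HNF6) was in 9 (18%) and 6.72%, TGTTTAC (FOXA) in 6 (12%) and 3.17%, and GTTAAT (HNF1) in 6 (12%) and 6.43%. GCGTG, of the aryl hydrocarbon receptor, was in 8 (16%) and 28.2%, and TTCNNNGAA (STAT5), which reads alike on both strands, in 2 (4%) and 7.02%. Paralogs that arose by duplication share upstream bases, so these members are not independent of each other.

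The Cyp2d genes stood apart from the Cyp2c genes in the tumor. Of the 6 tested at 2M, 5 were lower in the HKO liver. In the tumor against the non-tumor section 2 of the 6 were lower and none was higher. Cyp2d9, a male-biased steroid hydroxylase, was at 1183 FPKM in the control and 99.1 in the HKO liver at 2M, and 1064, 842 and 922 in the control, non-tumor and tumor libraries at 12M. It was 11.9-fold lower (95% counting interval, 11.6 to 12.3) in the HKO liver than in its control, and the non-tumor and tumor libraries lay within a log2 ratio of 0.13 of each other. Cyp2d10 was at 464 FPKM in the control and 195 in the HKO liver at 2M, and 496, 362 and 661 in the control, non-tumor and tumor libraries at 12M, with its highest level in the tumor. Cyp2d26 was at 609 FPKM in the control and 444 in the HKO liver at 2M, and 590.3, 436 and 533 in the control, non-tumor and tumor libraries at 12M. Cyp2d22 was at 83.8 FPKM in the control and 28.4 in the HKO liver at 2M, and 85.2, 70.9 and 83.5 in the control, non-tumor and tumor libraries at 12M. For both genes the tumor lay closer to the 12M control than the non-tumor section did.

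Cyp2d13 and Cyp2d40 departed from their neighbours. Cyp2d40 was at 104 FPKM in the control and 23.8 in the HKO liver at 2M, and 77.8, 38.03 and 15.99 in the control, non-tumor and tumor libraries at 12M, and was called lower in the 2M HKO, non-tumor and tumor against non-tumor comparisons, although its ratio of -1.03 in the non-tumor section was -0.95 when FPKM were turned into TPM. Cyp2d13, typed as a pseudogene, was at 43.4 FPKM in the control and 4.68 in the HKO liver at 2M, and 47.9, 26.5 and 3.30 in the control, non-tumor and tumor libraries at 12M. All 9 Cyp2d members lie within 423926 bases on chromosome 15, from 82370527 to 82794452. Over the 294 other genes of that chromosome with a mean over 5 FPKM, the median log2 ratio of tumor against non-tumor was 0.83, which is 0.69 above the median of all such genes, whereas the distance was 0.00 at 2M and 0.04 in the non-tumor section. On the chromosomes of the other members described with values over 5 FPKM, the same distance in the tumor was 0.27 on chromosome 7 (Cyp2a, Cyp2b, Cyp2e1 and Cyp2f2), -0.32 on chromosome 9 (Cyp1a2), -0.06 on chromosome 19 (Cyp2c), -0.15 on chromosome 4 (Cyp2j) and 0.03 on chromosome 5 (Cyp3a). The part of these shifts in the levels of the members was not tested.

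Of the Cyp2a genes, none was called lower at 2M or in the non-tumor section. Cyp2a5, which hydroxylates coumarin and nicotine, was at 595 FPKM in the control and 641 in the HKO liver at 2M, and 373, 699.6 and 406 in the control, non-tumor and tumor libraries at 12M, and was not called in any comparison. Cyp2a12, which acts on bile acids, was at 462 FPKM in the control and 464 in the HKO liver at 2M, and 385, 446 and 202 in the control, non-tumor and tumor libraries at 12M, and was called lower in the tumor against the non-tumor section only. Cyp2a4, a steroid hydroxylase that is higher in female than in male mice, was at 0.634 FPKM in the control and 248 in the HKO liver at 2M, and 2.47, 1.40 and 3.02 in the control, non-tumor and tumor libraries at 12M. The HKO liver was 392-fold higher (95% counting interval, 285 to 554) than its control, and all other libraries stayed at or below 3.02 FPKM. Cyp2a22 was at 0.244 FPKM in the control and 4.70 in the HKO liver at 2M, and 1.24, 2.00 and 0.174 in the control, non-tumor and tumor libraries at 12M, under the minimum in each library.

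Cyp2a4 and Cyp2a5 are near-identical, and their sequences are shown because their levels at 2M were not alike. Their coding sequences in GENCODE M21 are both 1482 bases long and differ at 23 bases (98.4% identical). The in-frame stretch of 93 bases within 1 exon with most differences holds 4 and lies in exon 4 of 9, at chr7:26308969-26309061 for Cyp2a4 and chr7:26837132-26837224 for Cyp2a5, both on the plus strand (differing bases in capitals).
Cyp2a4: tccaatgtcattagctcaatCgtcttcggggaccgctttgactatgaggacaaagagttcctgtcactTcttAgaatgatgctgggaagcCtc
Cyp2a5: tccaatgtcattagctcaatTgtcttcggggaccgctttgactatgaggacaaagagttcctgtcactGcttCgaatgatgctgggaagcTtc
Counted from the first base of the start codon, with the Cyp2a4 base first, these are C555T, T603G, A607C and C625T. The last falls in codon 209, a position whose exchange is known to switch these mouse enzymes between steroid and coumarin hydroxylation. Of the 50-base windows of the Cyp2a4 transcript, 36.1% occur in transcripts of Cyp2a5, and of those of the Cyp2a5 transcript 31.01% occur in Cyp2a4, so fragments from these stretches could be assigned to either. The summed level of the 4 Cyp2a genes was 1058 FPKM in the control and 1359 in the HKO liver at 2M, and 762, 1149 and 612 in the control, non-tumor and tumor libraries at 12M.

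The 250 bases before the starts of Cyp2a4 (chr7:26306942-26307191) and Cyp2a5 (chr7:26835089-26835338), both on the plus strand, are as similar. In an alignment 245 bases were identical, 4 differed and 2 stood opposite a gap. The TATA box and the HNF1 motif, in capitals, are present in both.
Cyp2a4: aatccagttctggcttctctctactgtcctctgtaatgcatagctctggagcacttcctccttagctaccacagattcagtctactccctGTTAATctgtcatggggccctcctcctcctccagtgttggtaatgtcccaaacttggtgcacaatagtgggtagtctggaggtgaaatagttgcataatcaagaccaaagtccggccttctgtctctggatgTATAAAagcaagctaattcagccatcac
Cyp2a5: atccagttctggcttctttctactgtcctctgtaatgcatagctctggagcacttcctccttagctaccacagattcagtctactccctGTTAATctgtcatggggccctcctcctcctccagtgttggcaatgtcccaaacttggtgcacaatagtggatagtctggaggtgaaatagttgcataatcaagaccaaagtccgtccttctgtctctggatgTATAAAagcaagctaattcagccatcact
GTTAAT starts 160 bases before the start in Cyp2a4 and 161 in Cyp2a5, and TATAAA 28 and 29 bases before it. The motifs printed do not overlap each other.

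The Cyp2b genes, of which Cyp2b10 is the classical target of CAR, were low in both controls. Cyp2b10 was at 1.58 FPKM in the control and 6.24 in the HKO liver at 2M, and 0.0152, 0.287 and 22.6 in the control, non-tumor and tumor libraries at 12M. The 12M control value rests on 1 fragment. Against the non-tumor section the tumor was 78.96-fold higher (95% counting interval, 50.4 to 132), and in the 2M HKO liver the gene was 3.94-fold higher (95% counting interval, 3.17 to 4.93). Nr1i3, which encodes CAR, went the other way in the tumor, at 25.1 FPKM in the control and 18.7 in the HKO liver at 2M, and 49.2, 28.6 and 1.24 in the control, non-tumor and tumor libraries at 12M. Cyp2b9, a female-biased gene, was at 0.0545 FPKM in the control and 15.1 in the HKO liver at 2M, and 0.394, 0.0270 and 0.0264 in the control, non-tumor and tumor libraries at 12M. It exceeded 1 FPKM in the 2M HKO liver only, where it was 276-fold higher (95% counting interval, 108 to 1016) than in its control, a ratio whose wide interval comes from the few fragments of the control. Like Cyp2a4, it was thus present at a marked level in 1 of the 5 libraries.

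Of the remaining subfamilies, Cyp2f2 is expressed around the portal vein in liver. It was at 1079 FPKM in the control and 171 in the HKO liver at 2M, and 679, 701 and 192 in the control, non-tumor and tumor libraries at 12M. The HKO liver and the tumor were thus both lower than their comparators, by log2 ratios of -2.66 and -1.87, and the non-tumor section matched its control within 0.05. Cyp2j5, an epoxygenase of arachidonic acid, was at 179.6 FPKM in the control and 54.6 in the HKO liver at 2M, and 173, 121 and 64.4 in the control, non-tumor and tumor libraries at 12M. Its log2 ratio was past the threshold at 2M (-1.72) and just under it in the tumor (-0.91). Cyp2j6 was at 13.2 FPKM in the control and 12.05 in the HKO liver at 2M, and 11.2, 10.3 and 31.7 in the control, non-tumor and tumor libraries at 12M. In the tumor Cyp2j6 was 3.08-fold higher (95% counting interval, 2.95 to 3.21) than in the non-tumor section, the 1 member besides Cyp2b10 called higher there.

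The Cyp3a genes kept most of their level in the 2M HKO liver. Cyp3a11, the main mouse counterpart of human CYP3A4 and a target of PXR, was at 1489 FPKM in the control and 1835 in the HKO liver at 2M, and 1321, 1940.4 and 828 in the control, non-tumor and tumor libraries at 12M. It was lowest in the tumor and highest in the non-tumor section, with log2 ratios of 0.30 at 2M and 0.55 for non-tumor tissue. The tumor was 2.34-fold lower (95% counting interval, 2.32 to 2.37) than the non-tumor section. Cyp3a25 was at 281 FPKM in the control and 154 in the HKO liver at 2M, and 224, 168 and 96.96 in the control, non-tumor and tumor libraries at 12M, and was called lower only in the tumor against the 12M Srsf2f/f liver. Cyp3a13 was at 54.5 FPKM in the control and 52.02 in the HKO liver at 2M, and 62.7, 49.3 and 52.3 in the control, non-tumor and tumor libraries at 12M, with log2 ratios of -0.07, -0.35 and 0.08. Cyp3a59 was at 20.7 FPKM in the control and 23.9 in the HKO liver at 2M, and 9.75, 12.01 and 15.2 in the control, non-tumor and tumor libraries at 12M, lower in all 12M libraries than in both 2M libraries.

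Of the members at or under 5 FPKM in every library, those given here with values were chosen after their values were seen. Cyp2r1, a vitamin D hydroxylase, was at 2.20 FPKM in the control and 1.79 in the HKO liver at 2M, and 2.72, 2.90 and 1.16 in the control, non-tumor and tumor libraries at 12M. Cyp2u1, which acts on fatty acids, was at 4.44 FPKM in the control and 0.915 in the HKO liver at 2M, and 4.04, 2.08 and 0.998 in the control, non-tumor and tumor libraries at 12M. Cyp1b1, which metabolizes estrogens and is found mainly outside the liver, was at 0.0502 FPKM in the control and 0.956 in the HKO liver at 2M, and 0.144, 1.14 and 1.67 in the control, non-tumor and tumor libraries at 12M. These 3 genes stayed under the minimum, so no call was made, but Cyp2u1 was lower in each mutant library than in either control and Cyp1b1 higher. Cyp2c39 was at 0.708 FPKM in the control and 3.30 in the HKO liver at 2M, and 1.26, 0.458 and 0.0895 in the control, non-tumor and tumor libraries at 12M, and so lay above its control in the 2M HKO liver and below it in the non-tumor section. Cyp2c69 was at 4.38 FPKM in the control and 0.735 in the HKO liver at 2M, and 2.07, 0.0960 and 0 in the control, non-tumor and tumor libraries at 12M. Like its neighbour Cyp2c40, it was lower in all mutant libraries than in both controls. Cyp2d11, Cyp2d12, Cyp2d34, Cyp2g1 and Cyp2j9 reached at most 2.60, 1.87, 1.64, 2.54 and 1.62 FPKM. Cyp2b13, Cyp2c65, Cyp2j8, Cyp2s1, Cyp3a16, Cyp3a44 and Cyp3a57 were detected in at least 1 library and stayed under 1 FPKM. The 9 members at 0 in all libraries were Cyp2b19, Cyp2b23, Cyp2c66, Cyp2j7, Cyp2j11, Cyp2j12, Cyp2j13, Cyp2t4 and Cyp2w1, which allows up to 3 fragments per library. Outside the rule, 28 further records carry names of these families, 25 of them typed as pseudogenes. Only Cyp2d37-ps exceeded 5 FPKM, at up to 27.8 in the 12M Srsf2f/f liver.

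Other genes of the same pathways were described by lists, counting genes over 1 FPKM in either library past the same log2 ratio. Under this rule 25.8% of all genes were higher and 6.3% lower at 2M, 10.6% and 2.39% in the non-tumor section, and 20.2% and 8.72% in the tumor against the non-tumor section, with median log2 ratios of 0.35, 0.20 and 0.26. Genes that pass this minimum only through the library where they are high have their direction set by it. Over all genes this held for 1544 of 3041 higher and 247 of 742 lower at 2M, 646 of 1172 and 121 of 264 in the non-tumor section, and 966 of 2433 and 407 of 1052 in the tumor against it. Por, the oxidoreductase that feeds electrons to all these enzymes, was at 282 FPKM in the control and 241 in the HKO liver at 2M, and 270.3, 203 and 121 in the control, non-tumor and tumor libraries at 12M. Of 15 genes for redox partners and heme synthesis, 1 was higher (Hmox1, which degrades heme, at 2.28) and 1 lower (Fdx1, a mitochondrial ferredoxin, at -1.10) at 2M, none was called in the non-tumor section, and 1, Pgrmc1, was lower in the tumor at -1.43. Their medians were -0.23, -0.05 and -0.43, nearer to 0 than those of the P450 members.

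Of 26 regulators of P450 genes, 6 were lower and 4 higher at 2M, and the medians of the list were -0.53, 0.01 and -0.29. Onecut1 (HNF6) had a log2 ratio of -3.58, Foxa1 -2.55 and the growth hormone receptor gene Ghr -2.33, while Cux2, a repressor higher in female liver, stood at 3.40. Cux2 was at 0.0434 FPKM in the control and 1.42 in the HKO liver. It passed the minimum only through the HKO library, which set its direction. In the non-tumor section 1 of 25 was lower, Onecut1 at -2.22. In the tumor against the non-tumor section 6 of 25 were lower, with Nr1i3 at -4.42 and the clock factor gene Dbp at -2.27, and none was higher. Of these 6, 1, Onecut1, passed the minimum only through the non-tumor section. Onecut1 was at 34.8 FPKM in the control and 2.82 in the HKO liver at 2M, and 7.38, 1.51 and 0.562 in the control, non-tumor and tumor libraries at 12M. Ghr was at 93.7 FPKM in the control and 18.6 in the HKO liver at 2M, and 95.6, 64.5 and 57.8 in the control, non-tumor and tumor libraries at 12M. Por, Ghr, Dbp, Hnf4a, Nr1i2, Glul and Alb are given for their roles and were chosen after their values were seen. The PXR gene Nr1i2 was at 38.8 FPKM in the control and 39.7 in the HKO liver at 2M, and 40.7, 44.5 and 81.8 in the control, non-tumor and tumor libraries at 12M. Its highest level was thus in the tumor, where Nr1i3 had its lowest.

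**Figure D5:**
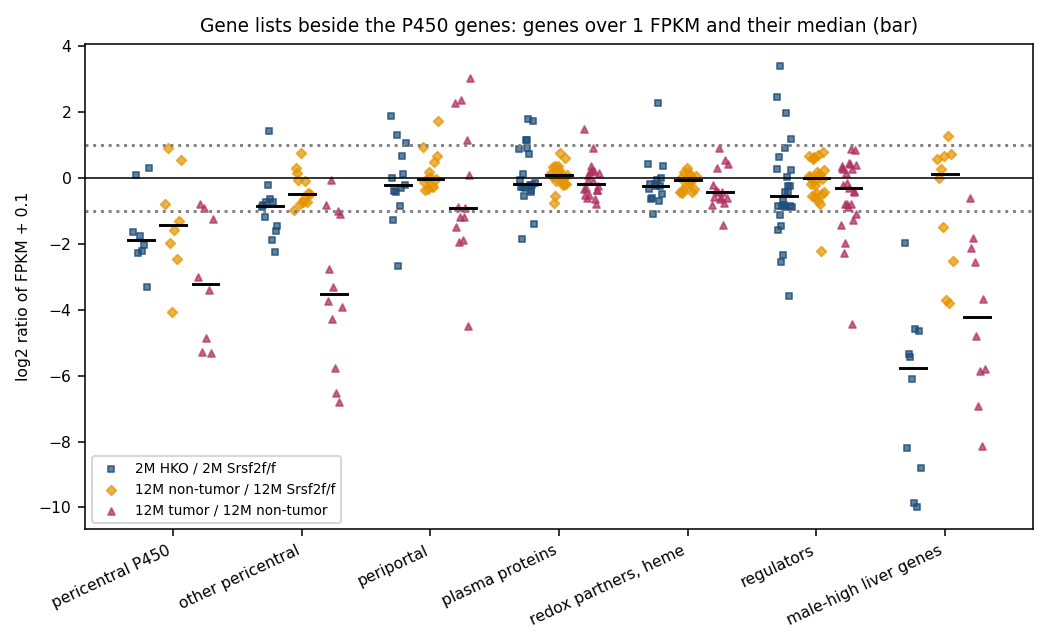
Log2 ratio (vertical axis) of genes over 1 FPKM in either library, by list, in the 3 comparisons of the study, with a bar at each median and dotted lines at -1 and 1. Medians of the pericentral P450 members are -1.88, -1.43 and -3.20, those of the plasma protein genes -0.17, 0.08 and -0.17.

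Lists of zonated genes, known for expression around the central or the portal vein, were read in the same way. The 8 pericentral P450 members had median log2 ratios of -1.88 at 2M, -1.43 for the non-tumor section and -3.20 for the tumor, with 6, 5 and 6 lower and none higher. The 12 other pericentral genes had medians of -0.84, -0.47 and -3.52, with 5, 0 and 10 lower and 1, 0 and 0 higher, where 1 of the 5, 4 of the 10 and the 1 higher passed through 1 library only. Glul, the glutamine synthetase of the innermost pericentral hepatocytes, was at 238 FPKM in the control and 106 in the HKO liver at 2M, and 373, 418 and 62.1 in the control, non-tumor and tumor libraries at 12M, and so was not lower in the non-tumor section, where 5 pericentral P450 members were. Of 13 periportal genes, Cyp2f2 among them, 2, 0 and 6 were lower and 3, 1 and 4 higher, with medians of -0.21, -0.03 and -0.90. Sox9, also counted below among the cholangiocyte and progenitor markers, was among the higher genes in each comparison, at 1.08, 1.74 and 3.02. It was the 1 higher in the non-tumor section. At 2M and in the non-tumor section it passed the minimum only through the mutant library.

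Genes with a known sex bias were counted likewise. Of 10 female-high P450 members, 7 were measured at 2M and 4 were higher (Cyp2a4, Cyp2b9, Cyp2b10 and Cyp2c39) and 2 lower (Cyp2c40 and Cyp2c69), and the male-high members Cyp2d9 and Cyp2u1 were both lower, by the rule of the lists. Of these, 3 of the 4 higher (Cyp2a4, Cyp2b9 and Cyp2c39), Cyp2c69 and Cyp2u1 passed the minimum only through the library where they were high, so that their directions were set by it. Medians of the female-high members were 1.91, -1.28 and 1.19, and those of the male-high members -2.87, -0.63 and -0.43. All 10 other male-high liver genes were lower at 2M, with a median of -5.76, among them Hsd3b5 at -9.85 and Slco1a1 at -8.81. In 5 of these 10 the control was the only library over the minimum. Of 7 other female-high genes measured, 5 were higher, all of which passed only through the HKO library, with Sult2a1 at 6.41. The lists overlap. Prom1, at 5.92, is also counted below among the cholangiocyte and progenitor markers, and Cux2 among the regulators above. In the non-tumor section 4 of the 10 male-high genes were lower and 1 was higher, with a median of 0.14, and in the tumor against that section 9 of 10 were lower, with a median of -4.22. Of these 9, 2, Hsd3b5 and Slco1a1, passed the minimum only through the non-tumor section. In the same comparisons, 3 of 5 female-high P450 members measured were lower and none higher, and 3 of 3 were higher and none lower. The 3 lower ones passed only through the control and 1 of the 3 higher ones, Cyp2b10, only through the tumor. Of the other female-high genes 1 of 2 was higher and 1 lower, and 2 of 3 were higher and 1 lower, with medians of 3.40 at 2M, -0.99 and 1.03. The median at 2M was the value of Cux2. In the tumor against the non-tumor section the 2 higher were Fmo2 and Prom1. Prom1 there passed only through the tumor, and the lower gene, Acot3, only through the non-tumor section. The labels give no sex. The 4 Y chromosome genes looked at were above 0 in all 5 libraries, with medians of 2.78 to 5.27 FPKM, and Xist was at 0 in all.

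Enzymes that act beside or after the P450 enzymes included genes in both directions. Of 28 other phase I genes, 11 were lower and 1 higher at 2M, with the carboxylesterases Ces3a at -6.39 and Ces3b at -6.09. In the non-tumor section 2 of 27 were lower and 1 higher, and in the tumor 13 and 1 of 27, with medians of -0.80, -0.26 and -0.92. Of 37 phase II genes, 13 were lower and 6 higher at 2M, 2 lower and 6 higher in the non-tumor section, and 15 lower and 3 higher in the tumor, with medians of -0.54, -0.08 and -0.64. The 6 higher at 2M included the glutathione transferases Gsta1 at 4.96 and Gstm3 at 3.02, and Sult2a8 was lowest at -7.76. Of 38 genes of P450 families 4 and above, 23 were measured. Of these, 10 were lower and 5 higher at 2M, 7 lower and 4 higher in the non-tumor section, and 12 lower and 1 higher in the tumor, with medians of -0.75, 0.02 and -1.27. Among 5 measured target genes of the aryl hydrocarbon receptor other than Cyp1, none was lower at 2M and 2 were higher, among them Nqo1 at 3.64. None of 4 was called in the non-tumor section, and 1, Nqo1 at 1.19, was higher in the tumor, with medians of 0.39, 0.04 and 0.60.

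In whole tissue, fewer hepatocytes and less P450 RNA per hepatocyte cannot be told apart, so hepatocyte and other markers were read beside the members. The 8 hepatocyte markers, all above 0 in all libraries, summed to 56721 FPKM for the 2M control, 64219 for its HKO counterpart, 57099 for the 12M control, 63824 for the non-tumor section, and 49579.5 as the lowest sum for the tumor. Of these markers, 1, Trf, was higher and 1, Ttr, lower at 2M, and none was called in the other comparisons. Trf was at 5897 FPKM in the 2M control and 19535 in the HKO liver, a larger rise than that of the sum. The other markers together were therefore lower in the HKO liver than in its control. Median log2 ratios of the list were -0.23, 0.05 and -0.36. Of 20 plasma protein genes, 4 were higher and 2 lower at 2M, none was called in the non-tumor section, and 1 was higher and none lower in the tumor against the non-tumor section, with medians of -0.17, 0.08 and -0.17. The P450 members had medians of -1.40, -0.51 and -1.14 by their own rule. Alb was at 35555 FPKM in the control and 34154 in the HKO liver at 2M, and 34306, 35874 and 28781 in the control, non-tumor and tumor libraries at 12M.

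Markers of other cells also differed between the libraries. The 9 cholangiocyte and progenitor markers summed to 23.2, 413, 27.9, 272 and 2080.2 FPKM in this order of libraries, mostly through Spp1. Of those measured, 6 of 7 were higher at 2M, 5 of 6 in the non-tumor section, and 4 higher and 3 lower of 7 in the tumor against the non-tumor section, of which 5, 4 and 1 of the higher and the 3 lower passed through 1 library only, with Cldn7 at 0 outside the tumor and Cftr at 0 in the 12M control and the tumor. The 9 macrophage markers summed to 246 and 1528 FPKM in the 2M control and HKO livers, and to 202, 362 and 329.9 in the 12M control, non-tumor and tumor libraries. Of these, 8, 4 and 0 were higher and 0, 0 and 5 lower in the 3 comparisons, 4 of these 5 passing through the non-tumor section only. Of the 8 higher at 2M, 1, Trem2, passed through the HKO library only. The 9 stellate cell and myofibroblast markers summed to between 18.97 FPKM (12M control) and 219.9 (tumor), with 8, 7 and 6 higher and 0, 0 and 1 lower. Of these, 1 of the 8, 2 of the 7 and the 1 lower passed through 1 library only. The 8 endothelial markers lay between 53.1 (non-tumor) and 198 FPKM (tumor), with 3, 1 and 4 higher and 0, 1 and 3 lower, these 3 passing through the non-tumor section only. The 1 higher in the non-tumor section, Lyve1, also passed through that section only. The 8 genes of dividing cells summed to 1.22 FPKM in the 2M control and 58.4 in the 2M HKO liver, where all 8 were higher and all 8 passed the minimum through the HKO library only, against 1.30, 4.77 and 9.86 at 12M, where 2 of 2 measured were higher in the non-tumor section and 1 of 4 in the tumor against it, again through 1 library only. Neutrophil markers summed to 139.8 FPKM in the 2M HKO liver and to 2.07 to 16.1 elsewhere, with 4, 3 and 0 higher and 0, 0 and 2 lower of 4 measured, of which 4 and 2 of the higher and 1 of the lower passed through 1 library only. T and B cell markers summed to at most 7.17 FPKM, with too few over the minimum to be read as a list (1, 2 and 3 genes, of which 1, 2 and 1 were higher and 0, 0 and 1 lower). The part of these cells in the P450 levels was not tested.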

How the data were processed

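RNA of mouse liver was sequenced as paired-end reads in 5 libraries, 1 per condition. The authors deposited FPKM values per gene. The submitters' processing notes name Bowtie 0.12.2 and the build GRCm38, and the counting tool is not given in the sources used here. The EBSeq test of the study was not repeated. The members and gene lists were chosen with earlier results of these data known.

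Fragments were worked back from FPKM and gene length (34969834 to 36104176 per library), and 98.7% to 98.8% of the values came out whole within 0.01. Between 58.8% and 61.0% of counts from 2 to 21 were even, so that intervals may be too narrow. Ratios carry 95% exact binomial counting intervals on the fragments worked back, with no minimum count set. A pseudocount of 0.1 FPKM was added before log2 ratios were formed, which understates differences of low genes, and calls needed over 5 FPKM (gene lists 1 FPKM) in either library. The fold rule was tested on simulated data. Members over 5 FPKM were named, with values for those over 100 FPKM or among the 10 largest ratios in each direction, and genes of lists by up to 4 largest ratios or, where the text says so, by role. The lists hold redox and heme genes, regulators, receptor targets, sex-biased and zonated genes, other phase I and phase II enzymes, other P450 families, plasma proteins and cell markers. An item of these lists is not reported here by name. Alternatives were pseudocounts of 1 and 0.01, a minimum of 1 FPKM or none, rescaling by the median ratio, TPM and subfamily sums. RefSeq held 58 members by symbol, 35 with the same start and end. Calculations ran in Python 3.11.15 with scipy 1.17.1, numpy 2.4.6 and pandas 2.3.3, and plots in matplotlib 3.10.9.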

Additional observations from a re-analysis of the deposited data

Results flagged for a closer look

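Cyp2c39, a member of the chromosome 19 block that stayed under 5 FPKM, differed in direction between ages. Its log2 ratio of mutant against control was 2.07 at 2M and -1.28 in the non-tumor section at 12M, with 1 library per condition, so the difference between the ages was not tested.

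Among records outside the rule, the pseudogene Cyp2d41-ps had a log2 ratio of 2.03 at 2M, with 0.986 FPKM in the control and 4.32 in the HKO liver, while the measured Cyp2d members with over 5 FPKM had ratios below 0 in the same comparison.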

How the results depend on the processing

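No paired analysis was possible because each condition has 1 library and the labels give no replicate numbers. Without replicates, only differences between these libraries can be described, and counting intervals do not cover differences between animals. With a minimum of 1 FPKM, members called higher numbered 7 at 2M (25.8% of all genes by this rule), 2 in the non-tumor section (10.6%), 5 in the tumor against the non-tumor section (20.2%), 6 in the tumor against the control (31.4%) and 4 between control livers (3.56%), where 4 were lower (2.78%). With no minimum, 13 were higher at 2M (23.8%), 4 in the non-tumor section (12.8%), 6 in the tumor against that section (18.2%), 8 against the control (27.5%) and 6 between control livers (5.57%), where 4 were lower (4.21%). The members added by these rules are low genes whose calls can rest on few fragments, and nothing is read from them. On TPM, 4 were higher in the tumor against the non-tumor section (19.3%) and 4 against the control (32.6%), and 2 were lower between control livers (2.24%). By subfamily sums, 1 subfamily was higher and 6 lower at 2M, 2 were lower in the non-tumor section, 1 was higher and 5 lower in the tumor against the non-tumor section, 1 was higher and 4 lower against the control, and 0 differed either way between control livers, since fewer units are counted. With a pseudocount of 1, median log2 ratios were nearer to 0: -0.63 (non-tumor) and -0.42 (tumor against control) in female-high P450 members, -4.84 at 2M and -3.56 in the tumor against the non-tumor section for other male-high genes, 1.21 at 2M and 1.11 in the tumor against the control for other female-high genes, and -1.98 and -2.57 in the tumor against the non-tumor section and against the control for other pericentral genes. Of single members, 907 ratios kept their side of the threshold and 20 passed it in addition. Another 3 dropped under it (Cyp2c55 at 2M under a pseudocount of 1 and after rescaling, Cyp2d40 in the non-tumor section on TPM), and no call was reversed. Ratios near 0 could change sign, such as that of Cyp2a5 at 2M, from 0.11 to -0.14 after rescaling. Genes with few fragments in a library are limited by depth.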
